A study of Mus musculus with 8 samples.

Results

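The genes described are those of the proteasome, taken as every symbol with values in the 8 libraries that starts with Psma, Psmb, Psmc, Psmd or Psme, without 2 interferon-inducible beta subunit genes that are not analysed here. They number 43 of the 17401 genes with values. Libraries came from pancreatic islets of C57BL/6 mice aged 12 weeks, with 4 of the ob/+ genotype and 4 of the ob/ob genotype. The ob allele is a loss-of-function mutation of the leptin gene. The ob/+ controls carry 1 mutant and 1 normal copy, so both groups carry the ob allele, and no library from mice without it was analysed here. Islets were dissociated with collagenase, enriched on a density gradient and picked by hand, so each library pools beta, alpha, delta and PP cells with whatever exocrine, vascular and immune cells came along. The labels do not give how many mice went into a library or whether libraries come from different mice. The p-values therefore speak only of how far these libraries scatter, part of which may be technical. In such bulk samples fewer cells of a type and less RNA per cell cannot be told apart.

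The proteasome is the main protease for ubiquitin-tagged proteins in the cytosol and nucleus. Its barrel, the 20S core, stacks rings of alpha subunits, which gate the entrance, around rings of beta subunits, of which some carry the proteolytic sites. The 19S cap holds a base, with a ring of ATPases that unfold and thread the substrate, and a lid, which removes the ubiquitin chain. Other activators can dock in place of the cap. In beta cells this machinery also disposes of misfolded proinsulin that is pulled back out of the endoplasmic reticulum. Interferon induces an alternative set of catalytic subunits and the activator made of Psme1 and Psme2. The transcription factor Nfe2l1 is known to raise the subunit genes together when proteasome activity falls short.

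Values are in FPKM, fragments scaled to transcript length and library size, so levels can be compared between genes per length. The islet hormones dominated every library: insulin transcripts made up 42.0% to 54.3% of summed FPKM in ob/+ and 57.1% to 65.6% in ob/ob. Summed markers of alpha cells (8716 to 12097 FPKM in ob/ob, 25311 to 31841 in ob/+) and of delta and PP cells did not overlap between the groups. Gcg made up most of the alpha sum (7098 to 10056 FPKM in ob/ob, 23645 to 30499 in ob/+). In the limma test described below, 6 of the 8 alpha markers were called lower in ob/ob and 1 higher. The higher one was Ttr (1799 against 1440 FPKM, limma adjusted p = 0.0141). Of the 10 tested beta cell markers, Ins1 and Ins2 among them, limma called 2 higher and 4 lower, and 7 had a negative log2 fold change. Markers of acinar cells, the enzyme-secreting exocrine cells, took 3.32% to 11.6% of summed FPKM in ob/ob and 7.65% to 26.0% in ob/+, with ob/+ 4 the richest. Summed macrophage markers lay at 78.8 to 133 FPKM in ob/ob and 84.2 to 123 in ob/+. Of the 11 tested macrophage markers limma called 0, and 6 had a negative log2 fold change. At an unadjusted p under 0.05 in limma, 2 of them were lower and 0 higher. Summed endothelial markers lay at 105 to 135 FPKM in ob/ob and 115 to 138 in ob/+, and stellate and pericyte markers at 70.7 to 96.8 and 80.8 to 91.1. The stellate and pericyte sum joins genes that moved in opposite directions, with 3 of 8 called lower in ob/ob and 2 higher. The summed duct markers were higher in ob/ob (267 to 303 against 209 to 242 FPKM). Of the 5 tested duct markers 3 were called higher and 2 had a negative log2 fold change. Over all genes tested limma called 10.6% lower and 8.21% higher in ob/ob. No gene with values on these lists was at 0 in all libraries. Relative depth, estimated from the spacing of low values, ran from 0.972 to 1.05, and absolute depth is unknown.

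The comparison asks whether the islets of obese, leptin-deficient mice carry a different amount or make-up of proteasome transcripts. For the summed core and cap genes the 2 groups of libraries overlapped. The 14 constitutive 20S genes summed to 585, 591, 535 and 540 FPKM in ob/+ 1 to 4 and to 530, 552, 562 and 595 FPKM in ob/ob 1 to 4. The groups overlap over most of their range, with means of 563 ± 29.5 (SD, n = 4) and 560 ± 27.0 (SD, n = 4), a difference of -0.595%. The 17 genes of the 19S base and lid summed to 541, 548, 503 and 458 FPKM in ob/+ and to 471, 489, 498 and 506 FPKM in ob/ob, again overlapping. These sums are descriptions and carry no test.

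Gene by gene, 41 of the 43 members reached 1 FPKM in at least 4 libraries and were tested with limma on log2(FPKM + 1), two-sided, with Benjamini-Hochberg adjustment over all 11747 genes tested. Of these 41, 2 fell in ob/ob (Psme1 and Psmc3ip) and 0 rose at an adjusted p under 0.05. Psmc3ip met the filter through the ob/+ libraries alone, so a difference was built into its passing. Over all genes tested 18.8% passed, 10.6% as lower and 8.21% as higher. At an unadjusted p under 0.05, limma had 8 members lower and 0 higher, where 19.2% of all genes tested were lower and 12% higher; the same shares stand behind each count at an unadjusted p given for a ring or list. The median log2 fold change of the tested members was -0.04, beside -0.07 for all genes tested, and the median size of the change was 0.06 beside 0.17. For 38 of the 41 the 95% interval of the log2 fold change lay wholly between -0.5 and 0.5, which was so for 64.4% of all genes tested. The exceptions were Psme1, Psmb10 and Psmc3ip. The median ob/+ mean was 32.1 FPKM for the tested members and 7.91 FPKM for all genes tested. The sizes of change and the intervals were not compared with genes of like level.

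**Figure D1:**
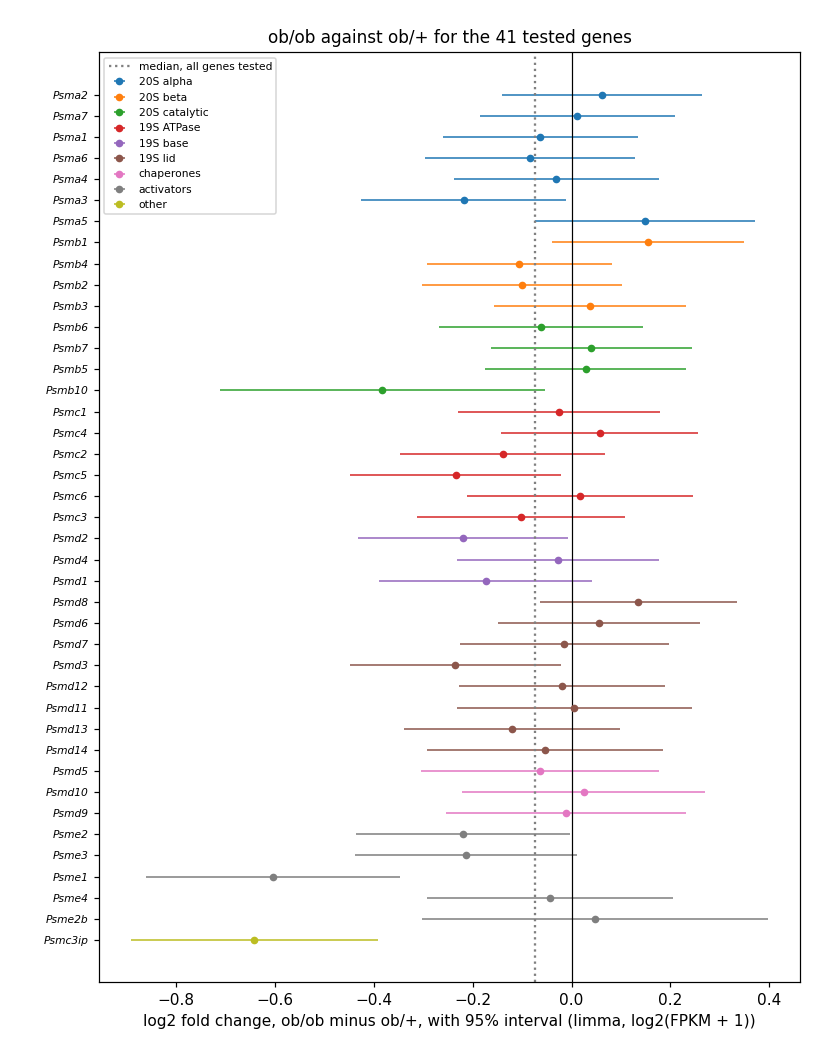
Log2 fold change of the 41 tested genes, ob/ob minus ob/+, on the x axis, with 95% intervals from limma, one row per gene and colours by role; the dotted line is the median of all genes tested (-0.07). Most intervals cross zero, and the points of Psme1 (-0.60) and Psmc3ip (-0.64) stand farthest to the left.

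Levels differed far more between subunits than between genotypes. Over the 14 constitutive 20S genes the group means ran from 20.2 to 63.5 FPKM in ob/+ (20.2 to 70.7 in ob/ob), and over the 19S base and lid genes from 13.8 to 43.9 and from 13.2 to 48.2. The order of the genes was nearly the same in both groups: Spearman's rho between the ob/+ and ob/ob means was 0.996 over the 14 genes of the 20S core and 0.953 over the 17 of the 19S cap, across genes, which are not independent replicates. Over all genes tested, single libraries of different genotype correlated at 0.955 to 0.965 (Pearson, log2 scale). A kept order is therefore not particular to these genes. Replicates lay close together as well. The median coefficient of variation of the tested members was 9.12% in ob/+ and 6.29% in ob/ob, beside 14.6% and 10.3% for all genes tested. All genes tested had a lower median level than the members, and genes of like level were not compared. Of the 2 genes below the filter, Psma8, the alpha subunit of the testis proteasome, lay between 0 and 0.1 FPKM in all libraries. Psmb11, the catalytic subunit of the thymus, lay at 0.3 to 0.52 FPKM in ob/+ and 0.41 to 0.54 in ob/ob.

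**Figure D2:**
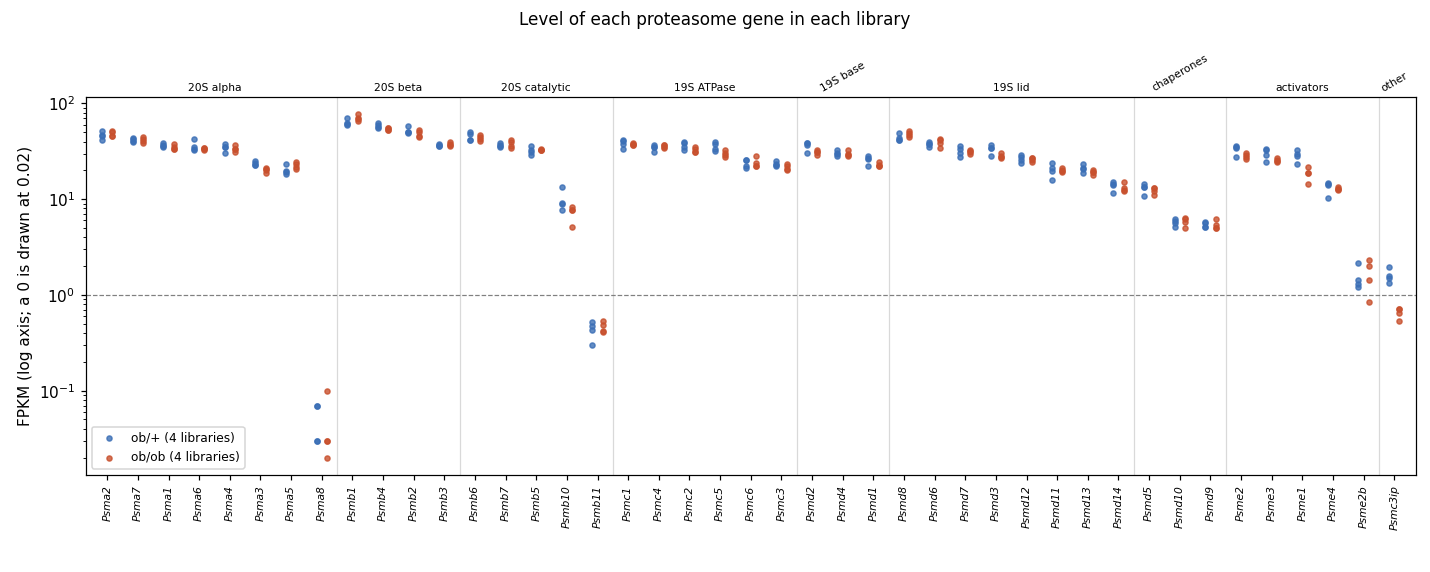
FPKM of all 43 genes in each library on a log axis (blue, ob/+; orange, ob/ob; 4 points each), grouped by role along the x axis; the dashed line marks 1 FPKM. The groups lie on top of each other for most genes, the tissue-specific Psma8 and Psmb11 sit below the line, and Psmc3ip lies above it in ob/+ and below it in ob/ob; a 0 is drawn at 0.02.

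The alpha ring, which forms the gate of the core, had 7 tested genes. At an adjusted p under 0.05 limma called 0 of them in either direction, and 1 was lower at an unadjusted p under 0.05. That gene was Psma3, with 23.82, 25.15, 22.84 and 22.99 FPKM in ob/+ and 18.99, 20.12, 20.50 and 21.33 FPKM in ob/ob. All 4 ob/ob libraries lie below all 4 ob/+ libraries, which was so for 10.7% of all genes tested, while 9.75% were separated the other way. Among the 41 members 3 were separated as lower (Psma3, Psme1 and Psmc3ip) and 0 as higher. The log2 fold change of Psma3 was -0.22 ± 0.10 (SE, limma adjusted p = 0.138). Without ob/+ 4 it passed (-0.23, limma adjusted p = 0.0226), in a fit that called 32.1% of all genes tested lower. Psma2, the most abundant alpha gene, was at 48.2 ± 2.95 FPKM in ob/ob and 46.2 ± 4.17 in ob/+, and Psma5, the tested alpha gene with the lowest ob/+ mean, at 22.4 ± 1.71 and 20.2 ± 2.19 (SD, n = 4 each). Their groups overlap, with limma adjusted p of 0.710 and 0.366.

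Among the structural beta subunits limma called 0 of 4 at an adjusted p under 0.05, and 0 had an unadjusted p under 0.05. Psmb1 was the most abundant gene of the whole set. It lay at 63.02, 70.51, 60.80 and 59.60 FPKM in ob/+ and 68.85, 66.01, 71.16 and 76.83 FPKM in ob/ob. The ob/ob libraries are on the high side but overlap with ob/+ 2 (log2 fold change 0.15 ± 0.09 SE, limma adjusted p = 0.274). Psmb3 lay between 35.5 and 37.7 FPKM in ob/+ and between 35.6 and 39.4 in ob/ob. Its 95% interval was -0.16 to 0.23 on the log2 scale (limma).

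None of the 3 standard catalytic subunits passed the test in limma, and 0 had an unadjusted p under 0.05. Psmb5, which carries the chymotrypsin-like site and is the main target of bortezomib, was at 32.7 ± 0.402 FPKM in ob/ob against 32.1 ± 2.93 in ob/+ (SD, n = 4 each). Its log2 fold change was 0.03 with a 95% interval of -0.18 to 0.23. Psmb6, which carries the caspase-like site, was at 43.6 ± 2.81 against 45.7 ± 4.58 FPKM (95% interval -0.27 to 0.14), and Psmb7, with the trypsin-like site, at 37.9 ± 3.45 against 36.7 ± 1.59 FPKM (95% interval -0.16 to 0.24; SD, n = 4 each). The limma adjusted p-values were 0.871, 0.712 and 0.817.

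Psmb10 is the interferon-inducible subunit that takes the place of Psmb7 in the immunoproteasome. It was at 9.0, 7.66, 9.06 and 13.32 FPKM in ob/+ and at 7.71, 5.11, 7.77 and 8.26 FPKM in ob/ob. The highest library is ob/+ 4, the lowest is ob/ob 2, and the groups overlap (log2 fold change -0.38 ± 0.16 SE, limma adjusted p = 0.0996). As a share of Psmb10 plus Psmb7, compared per length, it made up 17.4% to 27.3% in ob/+ and 12.4% to 18.5% in ob/ob, a description without a test. The same 2 libraries have the highest and the lowest share of acinar transcripts, 26.0% in ob/+ 4 and 3.32% in ob/ob 2. With the acinar share as a covariate the log2 fold change of Psmb10 was -0.01 (limma adjusted p = 0.947). With library totals taken without acinar genes Psmb10 passed as lower (-0.66, limma adjusted p = 0.0415), and without ob/+ 2 it did too (-0.48, limma adjusted p = 0.0389). Of all genes tested limma called 60.4% lower with totals taken without acinar genes and 7.04% lower without ob/+ 2. The part of acinar RNA in the values of Psmb10 was not tested. The summed markers of macrophages, cells in which immunoproteasome genes are known to be active, overlapped between the groups as given above. Of the 11 tested macrophage markers 6 had a negative log2 fold change. The part of macrophages in the values of Psmb10 and Psme1 was not tested.

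In the 19S base, the ATPase ring had 0 of 6 genes called by limma at an adjusted p under 0.05 and 1 lower at an unadjusted p under 0.05. The most abundant, Psmc1, was at 37.5 ± 0.847 FPKM in ob/ob and 38.3 ± 3.73 in ob/+, and the least abundant, Psmc3, at 21.6 ± 1.42 and 23.3 ± 1.32 (SD, n = 4 each; limma adjusted p = 0.883 and 0.530). The lowest unadjusted p was that of Psmc5, named like Psmd1, Psmd2, Psmd3, Psme2 and Psme3 after its values were seen, at 39.45, 37.80, 33.58 and 31.65 FPKM in ob/+ and 27.71, 29.15, 33.01 and 30.43 FPKM in ob/ob. Of the ob/ob libraries only ob/ob 3 reaches into the ob/+ range (-0.23 ± 0.10 SE, limma adjusted p = 0.120). The other base subunits are Psmd1, a scaffold, Psmd2, a docking platform for carriers of ubiquitinated proteins, and Psmd4, a ubiquitin receptor. Limma called 0 of these 3 at an adjusted p under 0.05, with 1 lower at an unadjusted p under 0.05. Psmd2 was at 38.69, 38.77, 37.11 and 30.38 FPKM in ob/+ and 28.91, 31.37, 32.44 and 30.75 FPKM in ob/ob (-0.22 ± 0.10 SE, limma adjusted p = 0.145). Here ob/+ 4 falls among the ob/ob libraries, and the other 3 ob/+ libraries lie above all of them. Psmd1 had the same layout, with ob/+ 4 at 22.33 FPKM, ob/+ 1 to 3 at 26.51, 28.58 and 27.09, and the ob/ob libraries at 22.28 to 24.56 FPKM (-0.17 ± 0.10 SE, limma adjusted p = 0.267).

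The lid had 8 tested genes, of which limma called 0 at an adjusted p under 0.05 and 1 was lower at an unadjusted p under 0.05. Psmd14, the deubiquitinase that cuts the chain from the substrate and the least abundant lid gene, was at 13.2 ± 1.28 FPKM in ob/ob against 13.8 ± 1.47 in ob/+ (SD, n = 4 each; limma adjusted p = 0.783). Psmd8, the most abundant, was at 48.2 ± 3.03 and 43.9 ± 3.31 FPKM (limma adjusted p = 0.358). The lowest p in the lid was that of Psmd3, a scaffold subunit, with 36.93, 34.05, 34.49 and 28.57 FPKM in ob/+ and 27.76, 30.19, 28.35 and 26.64 FPKM in ob/ob. Its layout is that of Psmd2, with ob/+ 4 inside the ob/ob range (-0.23 ± 0.10 SE, limma adjusted p = 0.118). The 3 chaperones that assemble the base and leave it again, Psmd5, Psmd9 and Psmd10, were lower in level than the subunits, at 5.39 to 13.02 FPKM as group means. Limma called 0 of them at an adjusted p under 0.05, and 0 had an unadjusted p under 0.05. Psmd5 was at 12.4 ± 1.02 against 13.02 ± 1.5 FPKM, and Psmd9 at 5.39 ± 0.531 against 5.43 ± 0.365 (SD, n = 4 each).

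The activators held the one called gene that codes for a proteasome protein. Psme1 encodes the alpha subunit of the ring-shaped activator that opens the core without ATP and is known for its part in making peptides for antigen presentation. The gene lies on chromosome 14, 55578123 to 55581529, plus strand (GRCm38). It was at 29.63, 23.19, 28.24 and 32.86 FPKM in ob/+ and at 14.57, 18.82, 21.77 and 18.59 FPKM in ob/ob. The groups do not overlap, and the nearest libraries are ob/ob 3 and ob/+ 2. Psme1 fell from 28.5 ± 4.02 to 18.4 ± 2.96 FPKM (SD, n = 4 each), a change of -35.3% and a log2 fold change of -0.60 ± 0.12 (SE, limma adjusted p = 0.000927). In relation to the mean of the 14 constitutive 20S genes of the same library it stood at 0.549 to 0.851 in ob/+ and at 0.385 to 0.543 in ob/ob, a description that does not depend on the scaling of the library.

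The partner subunit Psme2 lies nearby on chromosome 14 (55587441 to 55591113, minus strand). It was at 35.72, 34.39, 27.70 and 35.21 FPKM in ob/+ and at 26.44, 29.12, 30.04 and 27.69 FPKM in ob/ob. Only ob/+ 3 falls into the ob/ob range. The log2 fold change of Psme2 was -0.22 ± 0.10 (SE) and did not pass (limma adjusted p = 0.154). The ratio of Psme1 to Psme2, which form one mixed ring in the protein, was 0.8295, 0.6743, 1.0195 and 0.9333 in ob/+ and 0.5511, 0.6463, 0.7247 and 0.6714 in ob/ob, and it overlapped between the groups. Psme2b, a near-identical copy of Psme2 on chromosome 11, was at 1.65 ± 0.649 FPKM in ob/ob against 1.53 ± 0.430 in ob/+ (SD, n = 4 each; limma adjusted p = 0.873). Reads of Psme2 and Psme2b can be split between them, so both values are uncertain. Psme3, the nuclear relative of the pair, was at 33.11, 32.73, 29.06 and 24.24 FPKM in ob/+ and 24.82, 26.80, 25.71 and 24.23 FPKM in ob/ob, with ob/+ 4 inside the ob/ob range (limma adjusted p = 0.185). Psme4, a large activator of the nucleus, was at 12.8 ± 0.442 against 13.4 ± 2.12 FPKM (limma adjusted p = 0.837). Psme1 lies tail to tail with Emc9 and overlaps its end on the other strand. Emc9 was at 5.68 ± 0.847 FPKM in ob/ob against 5.62 ± 1.05 in ob/+ (SD, n = 4 each; limma adjusted p = 0.947), and the labels do not state whether counting used the strand.

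**Figure D3:**
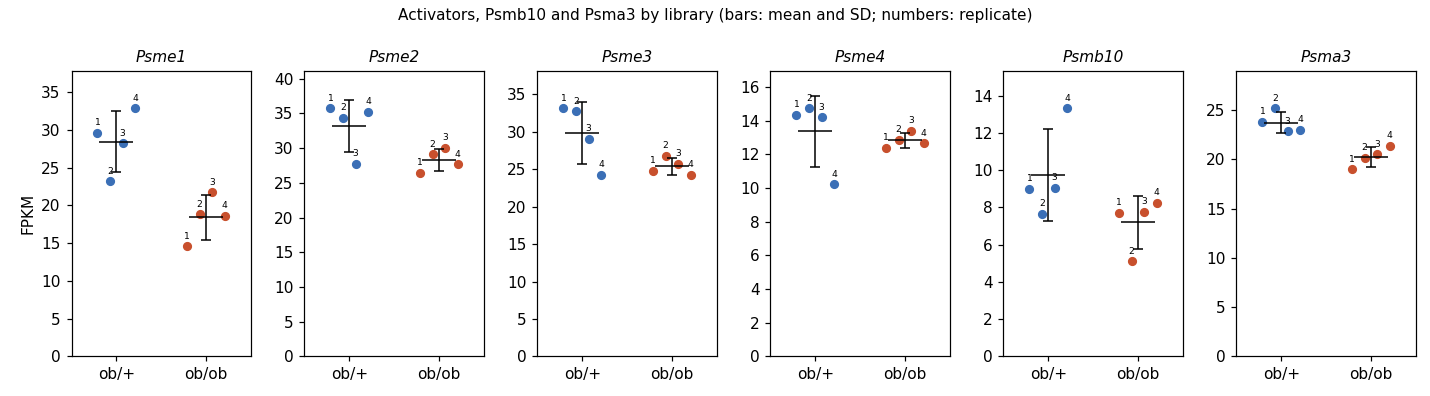
FPKM of the activator genes Psme1, Psme2, Psme3 and Psme4, of Psmb10 and of Psma3 in each library (y axes from 0; numbers mark the replicate; bars are mean and SD of 4 libraries). Psme1 and Psma3 are separated between the groups, while ob/+ 4 is the lowest ob/+ library for Psme3 and Psme4 and the highest for Psme1 and Psmb10.

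Because Psme1 is the called subunit and is known as an interferon target, its start region is shown. RefSeq's promoter table (GRCm38.p6) gives 1 window for Psme1, from 250 bases before to 50 after the start site. That window holds a match to the core of the interferon-stimulated response element (GAAA, any 2 bases, GAAA), on the strand opposite to the gene. Capitals mark the match, and the stretch is chr14:55578493-55578522, plus strand.
Psme1: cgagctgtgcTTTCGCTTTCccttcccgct
Searched on both strands, this motif was found in the windows of 3.99% of the 27025 genes in the table, of 3.55% of the 9100 tested genes found there and of 4 of the 36 members with a window (Psmb3, Psmd4, Psmd9 and Psme1). Of these 4 members, Psme1 was the one that passed the test.

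The other called gene bears a proteasome symbol without being a subunit. Psmc3ip is named for binding the ATPase Psmc3 and is known for pairing homologous DNA strands in meiosis. The gene lies on chromosome 11, 101091823 to 101095436, minus strand (GRCm38). It was at 1.56, 1.52, 1.94 and 1.33 FPKM in ob/+ and 0.65, 0.53, 0.72 and 0.72 FPKM in ob/ob, so the groups do not overlap. Psmc3ip fell from 1.59 ± 0.256 to 0.655 ± 0.0896 FPKM (SD, n = 4 each), with a log2 fold change of -0.64 ± 0.12 (SE, limma adjusted p = 0.000375), which understates the change of so low a gene. Leaving out any ob/+ library took it below the filter. Its end overlaps the end of Mlx on the other strand. Mlx was at 20.2 ± 1.16 FPKM in ob/ob against 22.1 ± 2.08 in ob/+ (SD, n = 4 each; limma adjusted p = 0.462).

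The promoters of Psmc3ip and of Psma3, the core subunit whose groups did not overlap, are printed for comparison, outside annotated exons. Capitals mark matches to any of 4 motifs: TGANNNNGC (the antioxidant response element core, bound by Nfe2l1 and Nfe2l2), CCAAT (the CCAAT box), CCGGAAG (the core of ETS sites) and the interferon element. The stretches are chr11:101095437-101095685, minus strand, and chr12:70974373-70974620, plus strand. The last capitals of Psmc3ip join a match to TGANNNNGC on the other strand with the start of a match to CCGGAAG that runs past the end of the stretch.
Psmc3ip: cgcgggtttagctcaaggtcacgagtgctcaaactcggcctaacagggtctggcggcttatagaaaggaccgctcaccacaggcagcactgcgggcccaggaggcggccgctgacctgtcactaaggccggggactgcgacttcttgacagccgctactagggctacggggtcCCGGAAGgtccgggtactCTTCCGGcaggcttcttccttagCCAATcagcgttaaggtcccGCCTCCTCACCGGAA
Psma3: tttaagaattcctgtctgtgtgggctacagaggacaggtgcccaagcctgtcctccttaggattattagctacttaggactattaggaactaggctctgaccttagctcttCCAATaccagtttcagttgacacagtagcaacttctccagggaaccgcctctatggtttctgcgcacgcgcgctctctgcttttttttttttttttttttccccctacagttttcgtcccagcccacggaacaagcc
Over the 36 members with a window, 20 held TGANNNNGC (55.6%, beside 47.9% of tested genes), 14 held CCAAT (38.9% beside 42.6%) and 13 held CCGGAAG (36.1% beside 20.3%). The ETS core was in windows of ATPase, other base, lid and activator genes (Psmc1, Psmd2, Psmd11 and Psme3 among them) and of Psmc3ip. Psma6 was the only alpha gene with a match, and it was in the window of no beta subunit gene. Such matches are descriptions of letters and no test of binding, and 7 members had no window in the table.

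Library ob/+ 4 stood apart from the other ob/+ libraries for the 19S genes more than for the 20S genes. It was the lowest of the 4 ob/+ libraries for 15 of the 17 genes of the 19S base and lid, 6 of the 14 constitutive 20S genes and 79.6% of all genes tested. The median ratio of ob/+ 4 to the mean of ob/+ 1 to 3 was 0.857 for the 19S genes, 0.954 for the 20S genes and 0.781 for all genes tested. The mean 19S gene stood at 0.7620, 0.7625, 0.7748 and 0.6982 of the mean 20S gene in ob/+ 1 to 4 and at 0.7322, 0.7298, 0.7300 and 0.7005 in ob/ob 1 to 4. Thus ob/+ 4 and ob/ob 4 share the lowest values, and the groups overlap only through ob/+ 4. That library held 26.0% acinar transcripts, the other ob/+ libraries 7.65% to 14.04%, and ob/ob 4 6.53%; the part of acinar RNA in the 19S to 20S ratio was not tested.

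**Figure D4:**
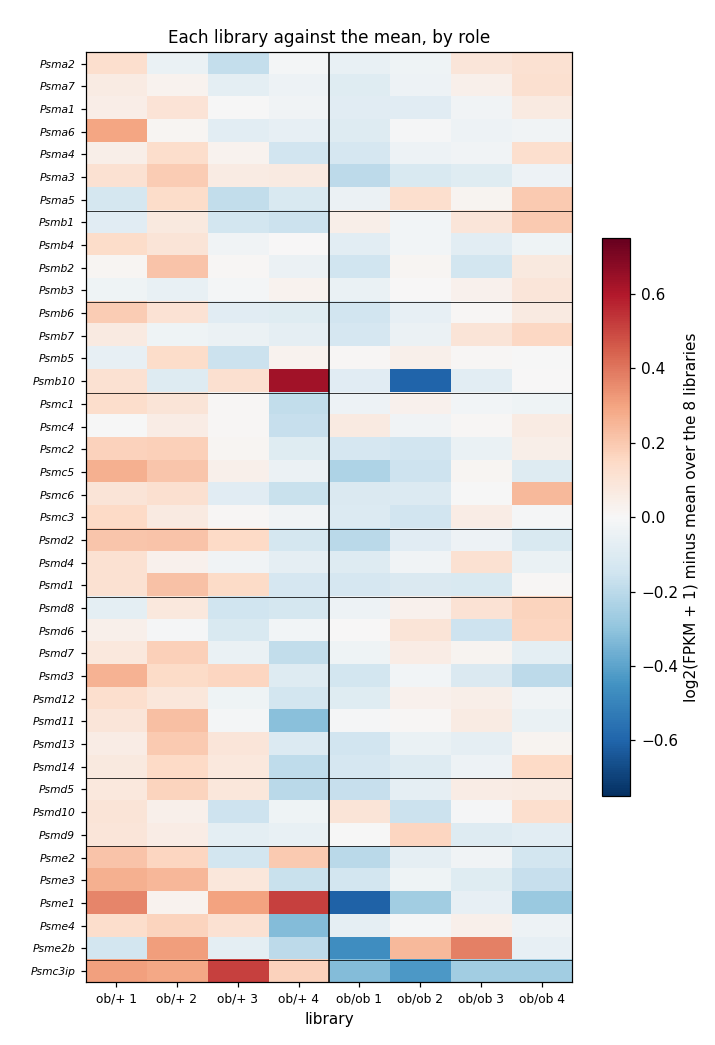
Log2(FPKM + 1) of each tested gene minus its mean over the 8 libraries, with libraries as columns and genes as rows in the order of the complex (red, above the mean; blue, below). In ob/+ 4 the 19S rows are mostly blue and the rows of Psmb10 and Psme1 are red; the row of Psme1 is blue in all 4 ob/ob libraries.

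Leaving out ob/+ 4 raised the count of members lower in ob/ob from 2 to 7 of 40 (17.5%), while 32.1% of all genes tested were then called lower. The 7 were Psma3, Psmc5, Psmd1, Psmd2, Psmd3, Psme1 and Psme3. Leaving out ob/+ 4 and ob/ob 1, each the most acinar of its genotype, gave 6 of 40 (26% of all genes tested), and the acinar share as a covariate gave 6 of 41 (18.8% of all genes tested), Psmc5, Psmd2, Psmd3, Psme1 and Psme3 being in both. When library totals were taken without acinar genes, 36 of 41 were lower and 0 higher. That scaling moved the median log2 fold change of all genes tested from -0.07 to -0.33, and the members' median to -0.33 as well. Scaled instead to the summed 20S and 19S genes, an alternative chosen after seeing the data, the calls were Psme1 and Psmc3ip. That scaling makes the sum of the core and cap genes equal in all libraries, so it cannot show a change they share. Psme1 was lower in ob/ob in each of the 20 alternatives (log2 fold change -0.90 to -0.43, limma adjusted p of at most 0.0349). Psmc3ip was below the filter in 6 of the 20. With no low-value filter, where its passing decides nothing, it was lower as well (log2 fold change -0.64, limma adjusted p = 0.00108).

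**Figure D5:**
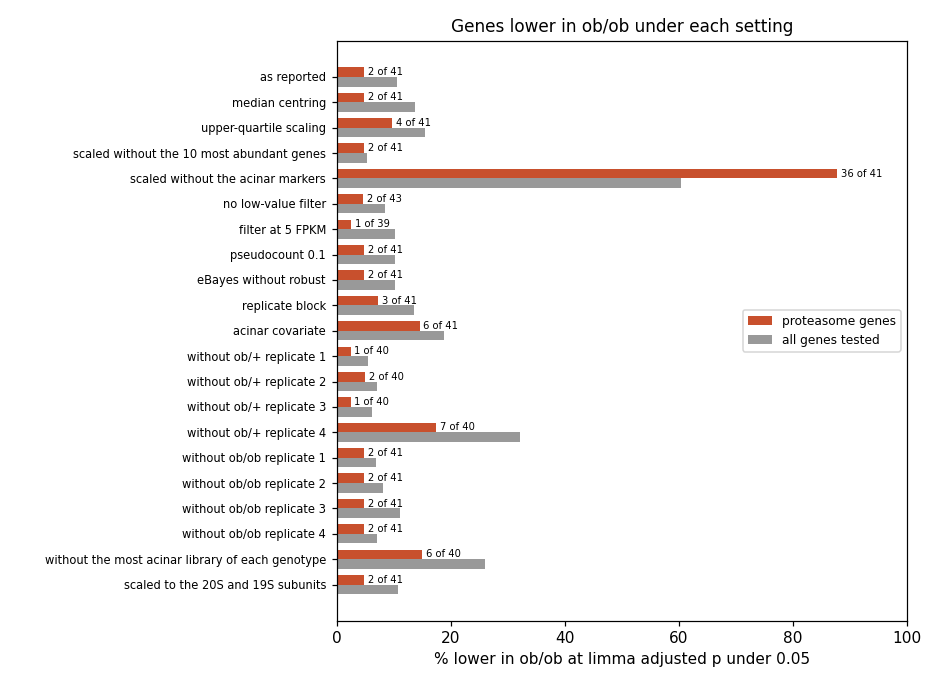
Share of the proteasome genes (orange) and of all genes tested (grey) that were lower in ob/ob at a limma adjusted p under 0.05, for the analysis as reported and 20 alternatives; the labels give the number of members. The share of members exceeds that of all genes only with the acinar markers left out of the scaling (87.8% against 60.4%).

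Other genes of the pathway were read from lists. Behind each count of called genes stand the shares of all genes tested, 10.6% lower and 8.21% higher in limma. Assembly factors and inhibitors of the core had 0 of 9 tested genes called by limma (1 lower and 0 higher at an unadjusted p under 0.05). The lower one was Psmf1, an inhibitor and regulator of the core, at 12.99, 10.98, 11.61 and 10.25 FPKM in ob/+ and 8.83, 9.62, 9.05 and 8.47 FPKM in ob/ob. Its groups do not overlap (log2 fold change -0.31 ± 0.11 SE, limma adjusted p = 0.0555), and Psmf1 was called lower in 9 of 20 alternatives. Subunits and partners of the cap with other symbols had 0 of 6 called (1 lower and 0 higher at an unadjusted p). Among them the ubiquitin receptor Adrm1 was at 31.4 ± 2.71 FPKM in ob/ob and 37.2 ± 4.44 in ob/+, and the cap's deubiquitinase Usp14 at 7.82 ± 0.532 and 9.35 ± 0.891 (SD, n = 4 each; limma adjusted p = 0.129 and 0.180). The ubiquitin ligase Ubr4 was at 34.3 ± 0.937 against 25.2 ± 7.73 FPKM (limma adjusted p = 0.191). Its groups do not overlap, at 33.05 to 35.23 FPKM in ob/ob and 13.87 (ob/+ 4) to 30.41 in ob/+. Of all genes tested 9.75% were separated as higher, and Ubr4 was called higher in 3 of 20 alternatives.

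Among the regulators of proteasome supply 2 of 13 tested genes fell and 0 rose in limma (2 lower and 2 higher at an unadjusted p under 0.05). Nfe2l2, the regulator of antioxidant genes, fell from 17.7 ± 2.15 to 13.4 ± 1.23 FPKM, and its binding partner Mafg from 11.7 ± 3.08 to 8.04 ± 1.07 (SD, n = 4 each; limma adjusted p = 0.0250 and 0.0463). The call of Nfe2l2 held in 13 of 20 alternatives and that of Mafg in 10. Ngly1, the glycosidase that activates Nfe2l1, was at 12.0 ± 0.928 against 9.49 ± 0.645 FPKM, and the glycosyltransferase Ogt at 31.1 ± 2.81 against 25.2 ± 5.57 (limma adjusted p = 0.0610 and 0.118). For both genes all ob/ob libraries lie above all ob/+ libraries, which was so for 9.75% of all genes tested. Ngly1 was called higher in 8 of 20 alternatives and Ogt in 4. Nfe2l1 was at 59.22, 63.78, 58.74 and 42.99 FPKM in ob/+ and 47.64, 50.55, 53.35 and 44.51 FPKM in ob/ob, with ob/+ 4 the lowest of all (limma adjusted p = 0.281).

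Of 16 tested genes for ubiquitin and its loading enzymes 2 rose and 2 fell in limma (2 lower and 4 higher at an unadjusted p under 0.05). Rps27a, which codes for ubiquitin joined to a ribosomal protein, rose from 213 ± 10.3 to 270 ± 23.4 FPKM (SD, n = 4 each; limma adjusted p = 0.00576). Its call ended in 1 of 20 alternatives, scaling without acinar genes. The ubiquitin-conjugating enzyme Ube2d3 fell (81.3 ± 6.81 to 65.7 ± 3.70 FPKM, limma adjusted p = 0.0253), as did Uba6, an activating enzyme (4.29 ± 1.08 to 2.93 ± 0.371 FPKM, limma adjusted p = 0.0452). The call of Ube2d3 held in 14 of 20 alternatives and that of Uba6 in 9 of 19. Shuttle factors and cofactors of Vcp, the ATPase that extracts proteins from the endoplasmic reticulum, had 0 of 17 called in limma (5 lower and 0 higher at an unadjusted p under 0.05). On the side of the endoplasmic reticulum 8 of 23 tested folding and disposal genes rose and 0 fell in limma (11 higher and 0 lower at an unadjusted p), with the smallest p-values for Derl3 (19.9 ± 3.34 to 60.4 ± 3.51 FPKM), Creld2, Dnajc3 and Pdia6. Derl3, Creld2, Dnajc3 and Pdia6 were called in all 20 alternatives. Pdia3, another of the 8, turned to -0.0069 on the log2 scale with library totals taken without acinar genes.

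The lid of the proteasome shares its architecture with the COP9 signalosome, which regulates ubiquitin ligases, and with the translation factor eIF3, so those complexes were listed for comparison. Of 10 tested signalosome genes 1 rose, Myeov2 (35.4 ± 3.56 to 44.9 ± 2.98 FPKM), and 1 fell, Cops7a (56.9 ± 4.75 to 45.0 ± 1.59 FPKM; SD, n = 4 each; limma adjusted p = 0.0190 and 0.0161). At an unadjusted p under 0.05, 3 signalosome genes were lower and 1 higher in limma. Of 13 tested eIF3 genes 1 fell, Eif3c (63.8 ± 7.04 to 51.9 ± 3.33 FPKM, limma adjusted p = 0.0453), and 0 rose (2 lower and 1 higher at an unadjusted p). The call of Myeov2 held in 15 of 20 alternatives, that of Cops7a in 17 and that of Eif3c in 11. Both complexes had medians near zero, at -0.03 and 0.03 on the log2 scale, as the proteasome genes had in the analysis as reported. The difference between these complexes and the proteasome was not tested.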

How the data were processed

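RNA of 8 islet libraries (4 ob/+, 4 ob/ob) was analysed. The authors deposited 1 table per library of gene values without a stated unit; they were read as FPKM from their range and sums, and for aligner and quantifier the sources used here give no name. The submitters' processing notes name Trimmomatic 0.36, DESeq2 1.20.0 and mm10, with no role. Absolute depth is unknown, since whole reads could not be recovered from the deposited FPKM values.

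Genes that reached 1 FPKM in 4 or more libraries were fitted on log2(FPKM + 1) with limma 3.58.1 (R 4.3.3, eBayes with trend and robust), two-sided, with Benjamini-Hochberg adjustment over 11747 genes and a threshold of 0.05. Coordinates are those of GENCODE for GRCm38, and promoter windows those of RefSeq. On simulated data 53% of 100 changes of 0.5 and 95% of 100 changes of 1 on the log2 scale were called, with 6.33% false calls. The 20 alternatives covered scaling, filter, pseudocount, variance model, replicate block, acinar share and left-out libraries.

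The members and gene lists were chosen with earlier results of these data known. Named were members called by the test or with groups that do not overlap, the highest and lowest of each role, all catalytic subunits, members below the filter, and up to 4 genes of smallest p from each pathway list. Some genes that this rule names are not reported here.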

Additional observations from a re-analysis of the deposited data

Results flagged for a closer look

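In 6 of 116 groups of 4 libraries 1 value lay far from the other 3 by Dixon's test at the 95% level, where chance gives about 1 in 20. Psmd1, a scaffold of the 19S base, was at 24.56 FPKM in ob/ob 4 and at 22.28 to 22.59 in the other ob/ob libraries. Psme2 was at 27.7 FPKM in ob/+ 3 and at 34.39 to 35.72 in the other ob/+ libraries. Psme4 was at 10.22 FPKM in ob/+ 4 and at 14.21 to 14.73 in the others. The ratio of the mean 19S to the mean 20S gene was 0.6982 in ob/+ 4, beside 0.762 to 0.7748 in the others, and 0.7005 in ob/ob 4, beside 0.7298 to 0.7322. The summed endothelial markers were at 115.34 FPKM in ob/+ 4 and at 134.01 to 137.76 in the other ob/+ libraries.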

How the results depend on the processing

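The count of proteasome genes higher in ob/ob was 0 in all 20 alternatives. The count lower, 2 as reported, was 4 with upper-quartile scaling, 36 with the acinar markers left out of the scaling, 1 with a filter at 5 FPKM, 6 with the acinar covariate, 6 without the most acinar library of each genotype, and 1 to 7 with single libraries left out. For all genes the count lower, 1243 as reported, was 629 scaled without the 10 most abundant genes, 7096 without the acinar markers, 803 at 5 FPKM, 2205 with the covariate, 2988 without the most acinar libraries, and 635 to 3728 with single libraries left out. The count higher, 965 as reported, was 1823 with median centring, 1640 with upper-quartile scaling and 483 without the acinar markers. Over the pathway lists the count lower, 6 as reported, was 10 with median centring, 10 with upper-quartile scaling, 0 without the 10 most abundant genes (limma), 60 without the acinar markers, 15 with the covariate, 27 without the most acinar libraries, and 0 to 30 with single libraries left out. The count higher, 11 as reported, was 21 with median centring, 21 with upper-quartile scaling, 17 without the 10 most abundant genes, 5 without the acinar markers and 17 scaled to the 20S and 19S genes, which was chosen after seeing the data. The members' median log2 fold change, -0.04 as reported, was 0.0685 without the 10 most abundant genes, -0.33 without the acinar markers and -0.15 with the covariate. The sign of small, uncalled changes turned. Without the acinar markers it did for Psma2 (-0.24), Psma5 (-0.14), Psmb1 (-0.15), Psmb3 (-0.26), Psmb5 (-0.27), Psmb7 (-0.26), Psmd8 (-0.16), Psme2b (-0.14), Eif3h (-0.12) and Eif3k (-0.12). With the covariate it did for Psmb5 (-0.0075), Psmb7 (-0.0002) and Psme2b (-0.28). With median centring it did for Psmb6 (0.0092), Psmc1 (0.0448), Psmd14 (0.0162), Psmd5 (0.0074) and Psmd9 (0.0600), and with upper-quartile scaling for Psmc1 (0.0261) and Psmd9 (0.0340). Without the 10 most abundant genes it did for Psmb6 (0.0567), Psmc1 (0.0918), Psmc3 (0.0135), Psmd14 (0.0578), Psmd5 (0.0484) and Psmd9 (0.0915), and scaled to the 20S and 19S genes for Psmc1 (0.0089) and Psmd9 (0.0199). With single libraries left out the values ran from -0.0204 to 0.0798 for Psmb5, -0.0045 to 0.0887 for Psmb7, -0.092 to 0.0136 for Psmc1, -0.0654 to 0.0198 for Psmd9 and -0.0712 to 0.2111 for Psme2b. The cause was not tested. Libraries of the same number correlated in their deviations at -0.22, 0.212, 0.172 and 0.124, and libraries of different numbers at -0.189 to 0.194. Whether the numbers pair the libraries cannot be told from these values. With the replicate block 3 members were lower, Psmb10 (limma adjusted p = 0.0183) besides Psme1 and Psmc3ip. Unknown depth limits what can be said of Psma8, Psmb11 and Psmc3ip.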
